A study of Mus musculus with 11 samples.

Results

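Light zone (LZ) B cells of Myc V394D mice were compared directly with memory B cells (MBCs) of Myc_WT mice, without the Myc_WT LZ columns. The question was how much of the germinal center (GC) program the mutant cells sorted as LZ held. The comparison used 7 of the 11 libraries of the study, the 4 of LZ B cells of Myc V394D mice (here Myc_VD) and the 3 of MBCs, and it was run over the nuclear protein-coding genes, of which 9244 of 21759 had a mean of at least 5 and were tested. The 4 Myc_WT LZ libraries entered no test against MBCs, and their levels stand beside the others as a description. All cells came from spleens of female mice of 8 to 12 weeks on day 10 after intravenous immunization with sheep red blood cells (SRBC), after magnetic depletion of CD43+ cells, and the labels and the study's methods give different SRBC doses. LZ cells of both genotypes were sorted as B220+ CD138neg IgDneg CD38neg Fas+ CD86high CXCR4low, and MBCs as B220+ CD138neg IgDneg CD38+ CD273+. The Myc_VD allele lies at the endogenous Myc locus and is carried by all cells of the mouse, so that T cells and stroma of these mice carry it too. The names of the Myc_VD mice share a prefix that no Myc_WT mouse has, which the labels do not explain, and each of their libraries is 1 mouse, as are the MBC libraries, whose 3 mice also gave Myc_WT LZ libraries. Cell type, genotype and whatever the prefix stands for therefore differ together between these groups and cannot be told apart.

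GCs are transient sites in B cell follicles where B cells mutate their receptor genes and are selected for antigen binding. In the dark zone (DZ) the cells divide and mutate, and in the LZ they take up antigen, receive T cell help, and either return to the DZ or leave as MBCs or plasma cells. BCL6 is the transcription factor that sets the GC program. MYC is induced in the few LZ cells that are positively selected. It activates genes with its partner MAX and can repress others by binding MIZ1 (Zbtb17), and the V394D change prevents binding to MIZ1 and leaves binding to MAX. MBCs are long-lived, mostly resting cells that recirculate and carry CD38 and, in part, CD273 and CD80.

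Values are the authors' TPM (transcript abundance corrected for length and scaled to a fixed total), rescaled so that the nuclear protein-coding genes of a library sum to 1000000. Differences are of log2(value + 1), given ± SE with the adjusted p of limma, and a gene was called at an adjusted p under 0.05. Of the 9244 genes, 343 (3.71%) were called higher and 216 (2.34%) lower in Myc_VD LZ B cells than in MBCs, and the median difference of all genes was 0.17. The values of the groups did not overlap in 1101 genes with Myc_VD above (11.9%) and in 888 with Myc_VD below (9.61%). They overlapped in none of the 343 and 216 genes called, so lack of overlap is no added support for a called gene. On TPM as deposited the median was -0.19 and 202 genes were called higher and 382 lower, so 61.4% of the calls were higher after rescaling and 34.6% before it. The calls also moved with single libraries, to between 103 and 117 higher and 97 and 120 lower when any single Myc_VD library was left out, to 714 higher without MBC library 3, and to 129 lower without MBC library 1.

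The libraries were not alike within a group. Ribosomal RNA took 44.1 to 61.3% of TPM in Myc_VD LZ and 36.1 to 37.5% in MBCs, and nuclear protein-coding genes 30.7 to 47.7% and 49.5 to 52.6%. Among 3760 well expressed genes (mean of 50 or more over the 11 libraries), 40, 52 and 1 were listed at 0 in MBC libraries 1, 2 and 3, and 1 to 6 in the Myc_VD libraries. TPM keep no depth, and a 0 in these columns may stand for a gene that was expressed but not estimated. Across the genes tested, MBC library 3 correlated with the Myc_VD libraries at r = 0.718 to 0.801 and MBC libraries 1 and 2 at 0.565 to 0.629 and 0.543 to 0.612. Among themselves, MBC libraries 1 and 2 correlated at 0.605, and library 3 with them at 0.739 and 0.703, so that libraries 1 and 2 were the least alike of the 3 and library 3 was about as close to the Myc_VD libraries as to the other MBC libraries. Libraries 1 and 2 come from mice of 1 name prefix and library 3 from a mouse of another. The part of these library differences in the results was not tested. Counts of the GC, MBC, S phase and G2/M lists are therefore also given without MBC libraries 1 and 2, where the 1 remaining MBC library is assumed to vary like the Myc_VD libraries. In that setting, chosen after seeing the data, 151 genes were called higher and 40 lower. Fewer cells of a type and less RNA per cell cannot be told apart in these bulk libraries.

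Markers of other cells were checked in each group. The calls of these lists stand against 3.71% of all genes called higher and 2.34% lower. Of 14 myeloid genes, 6 were tested and 2 were called lower in Myc_VD LZ, and their sum over all 14 was 25.9 to 89.6 in Myc_VD LZ and 118 to 529 in MBCs. Csf1r, the receptor for macrophage colony-stimulating factor, was at 1.49, 0, 0 and 0.72 in Myc_VD libraries 1 to 4 and at 20.2, 11.7 and 31.1 in MBC libraries 1 to 3, while the neutrophil genes S100a8 and S100a9 were listed at 0 in all 7. The erythroid sum was 346 to 1106 in Myc_VD LZ and 50.4 to 13307 in MBCs, of which the highest was library 2 with Hbb-bs at 5166, and none of 9 tested genes was called. None of the 8 NK genes reached the mean needed for a test, and their sum was 8.46 to 37.7 in Myc_VD LZ and 0 to 15.6 in MBCs. The sum of 14 T cell genes was 126 to 185 in Myc_VD LZ and 340 to 489 in MBCs. The 3 tested gave 1 call, Cd2, which mouse B cells also express. The number of T cell genes listed at 0 was 7, 12, 10 and 1 in Myc_VD libraries 1 to 4. In MBC libraries 1 to 3 it was 11, 11 and 0. Cd3g was among those at 0 in all Myc_VD libraries and in MBC libraries 1 and 2. Of 9 stromal genes, 8 were among the nuclear protein-coding genes, and their sum was 35.9 to 124 in Myc_VD LZ and 285 to 551 in MBCs. Of these, 2 were tested and both were called lower, Pecam1, which B cells also express, and Vcam1. Vcam1 was listed at 0 in all Myc_VD libraries and at 32.2, 13.2 and 59.1 in MBCs. The collagen genes Col1a1, Col1a2 and Col3a1 were at 0 in all 7 libraries. The platelet list had 1 tested gene, Itgb3, and no call, with sums of 14.5 to 27.3 and 13.4 to 134, and the 9 tested plasma cell genes gave no call, with sums of 1273 to 1361 and 1227 to 1459. B cell lineage genes were high in both groups, with Cd74 at 22075 to 23989 in Myc_VD LZ and 19543 to 23127 in MBCs, and 2 of 20 were called, Ptprc and Cd37, both lower in Myc_VD LZ. The part of the myeloid, T cell, erythroid and stromal signal in the results was not tested.

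Cd38 and Pdcd1lg2 followed the gates, and other sorting markers did so only in part. Cd38, an ectoenzyme that mouse GC B cells carry at low levels, was at 27.1, 14.7, 46.2 and 36.4 in Myc_VD LZ and at 479.6, 546 and 379.6 in MBCs, a difference of -3.97 ± 0.42 (adjusted p = 0.000727). Pdcd1lg2, which encodes CD273, was at 9.91, 8.76, 9.83 and 9.25 against 159, 71.8 and 54.5 (-3.05 ± 0.57, adjusted p = 0.0127). Neither gene had overlapping groups. Fas, the death receptor of the GC gate, was at 99.0, 230.2, 129.6 and 136 in Myc_VD LZ and at 88.3, 13.7 and 74.1 in MBCs, above MBCs in every library, with an adjusted p of 0.144. Cd86, a costimulatory ligand, was at 442, 492, 573 and 568 against 329, 389 and 355, again without overlap and without a call (adjusted p = 0.171). Cxcr4, the receptor that holds cells in the DZ and for which LZ cells were sorted low, was not lower in Myc_VD LZ than in MBCs, which were not sorted on it, and overlapped between groups, with 269.7, 109, 171 and 173 in Myc_VD LZ and 57.5, 231 and 99.1 in MBCs. Ptprc, whose B220 form was used in both gates, was called lower in Myc_VD LZ (-0.64 ± 0.17, adjusted p = 0.0485), a call lost in 13 of 19 alternatives. Sdc1, encoding the excluded CD138, was at 0, 0, 15.3 and 0 and 0, 0 and 10.3, and Cd93, encoding the AA4.1 antigen of immature B cells, was at most 3.57 in either group, so neither was tested. Ighd, the IgD heavy chain that both gates excluded, was at 10.5 to 27.4 TPM as deposited in Myc_VD LZ and at 59.3 to 156 TPM in MBCs, so its transcript was present in the cells sorted as IgDneg. Since the sort used these proteins, their differences bear on the gates and are no finding.

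GC identity genes that were called were all higher in the mutant LZ cells. This and the other gene lists were chosen with earlier results of these data known, so counts set against all genes are no independent evidence. Of 20 genes of GC B cells, 10 were called higher in Myc_VD LZ than in MBCs and 0 lower, against 3.71% and 2.34% of all genes, and 14 (against 11.9% of all genes) were above and 1 (against 9.61%) below MBCs in every library. Fas, which the LZ gate used, is among the 14. LZ cells were taken by a GC gate and MBCs as CD38+ CD273+, so a mutant cell without the GC surface pattern would be missing here. The part of the sort in the differences of this list and of the MBC list was not tested. Their median difference was 1.75, against 0.17 over all genes, and the same median between Myc_WT LZ and MBCs was 1.84, which was not tested. Summed over the list, the level was 7521 to 8643 in Myc_VD LZ, 4124 to 4508 in MBCs and 6449 to 7838 in Myc_WT LZ. Bcl6 (chr16:23965052-23988852) was at 434, 444, 467 and 461 in Myc_VD LZ libraries 1 to 4 and at 98.3, 45.9 and 101 in MBC libraries 1 to 3. The 4 mutant libraries lay within a narrow range and all were above the highest MBC library (2.53 ± 0.32, adjusted p = 0.00197).

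Mef2b, a transcription factor that acts upstream of Bcl6, had the largest difference of the list, from 6.44, 0.28 and 10.7 in MBCs to 179.9, 265, 128 and 207 in Myc_VD LZ (5.30 ± 0.72, adjusted p = 0.00302). S1pr2, the receptor that confines B cells to the GC, was at 175, 144, 220.0 and 143 in Myc_VD LZ and at 30.8, 0.12 and 26.1 in MBCs (4.10 ± 0.99, adjusted p = 0.0364). MBC library 2 stood far below the other MBC libraries for S1pr2, as it did for Mef2b. Gcsam, an adaptor of GC B cells also known as M17, was at 164, 146, 119 and 63.9 against 0.10, 21.8 and 6.04 (4.38 ± 0.90, adjusted p = 0.0189). For Nuggc, a nuclear GTPase of GC B cells, the values were 174, 101, 150.1 and 157 in Myc_VD LZ and 20.6, 2.91 and 38.3 in MBCs (3.27 ± 0.70, adjusted p = 0.0218). In each of these genes, as in all 343 genes called higher, the lowest Myc_VD library lay above the highest MBC library. On the log2 scale the MBC libraries were more spread than the Myc_VD libraries in each of them. Neil1, a DNA glycosylase of base excision repair, was at 203, 203, 232 and 201 in Myc_VD LZ and at 21.6, 24.8 and 41.2 in MBCs (2.85 ± 0.35, adjusted p = 0.00166). Efnb1, the ephrin B1 ligand, was at 34.1, 40.3, 30.4 and 38.2 against 3.07, 0.55 and 9.56 (3.17 ± 0.77, adjusted p = 0.0374). Basp1 (2.26) and Mybl1 (2.00), which encodes a MYB family factor of GC B cells, were called as well. In 19 alternatives of processing or libraries the call was lost in 9 for Efnb1, whose lowest difference over the alternatives was 1.79, in 7 for S1pr2 (2.53) and Nuggc (1.87) and in 6 for Gcsam (3.21), and in 0 for Mef2b and Neil1. An exact permutation test over the 35 groupings of 4 and 3 libraries gave 0.0286 for each of the 10 called genes, the smallest p it can give. This p reflects the lack of overlap that all 343 genes called higher share, and is no added support.

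The other 10 genes were not called. Lmo2, a transcriptional cofactor used as a GC marker, went the other way, with 148, 111, 129 and 107 in Myc_VD LZ below 156, 476 and 518 in MBCs in every library (-1.46 ± 0.41, adjusted p = 0.0653). Irf8, a transcription factor of B cells and myeloid cells, had a difference of -0.45 ± 0.27 with overlapping groups. Il21r, the receptor of the T cell cytokine IL-21, was at 175, 285, 299 and 239 in Myc_VD LZ and at 164, 89.8 and 101 in MBCs (1.09 ± 0.32, adjusted p = 0.0758). Ezh2, Rgs13, Gna13, Spib, Pou2af1 and Plxnb2 had differences between 0.30 and 1.69. Counts of called GC genes were 5, 5, 5 and 6 without Myc_VD libraries 1, 2, 3 and 4, and 9 without MBC libraries 1 and 2.

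**Figure D1:**
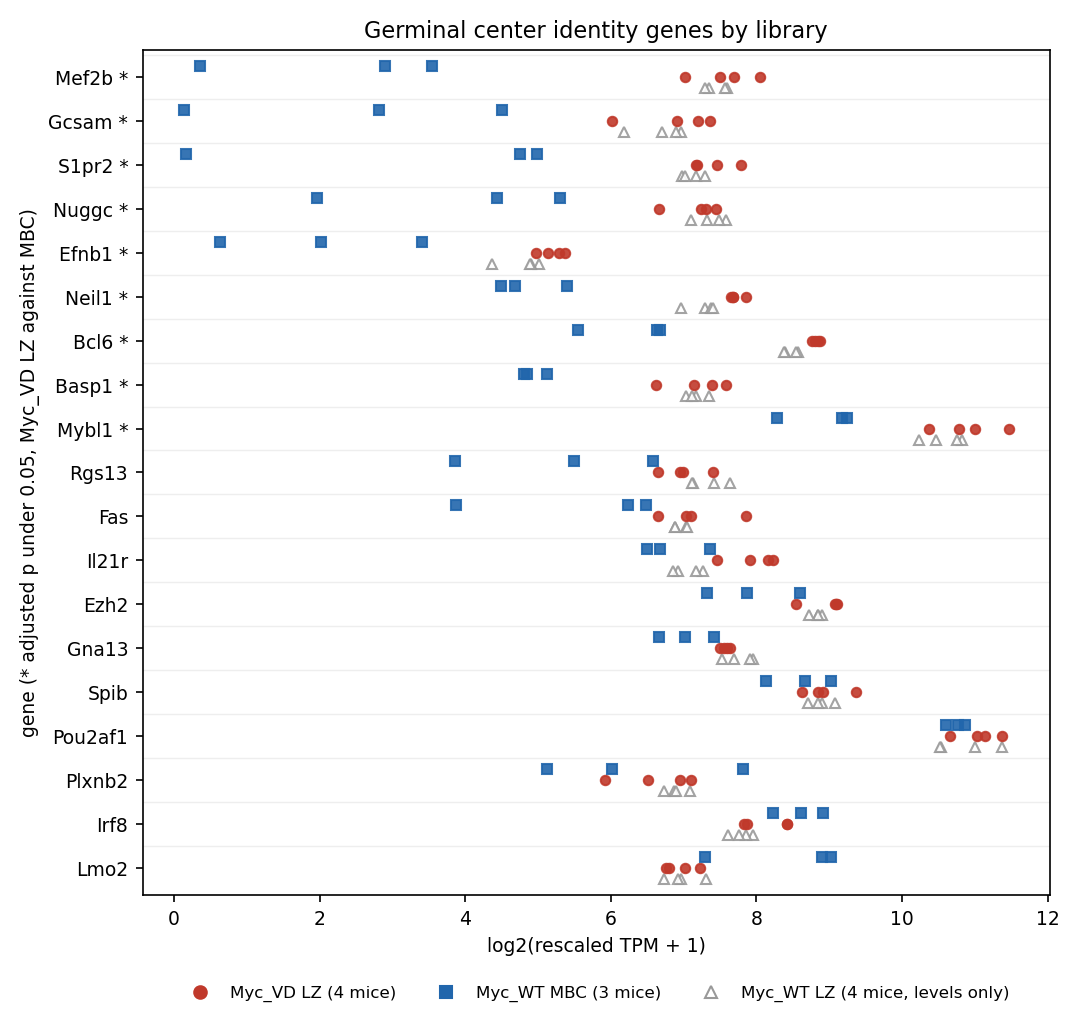
Levels of 19 of the GC identity genes, log2(rescaled TPM + 1) on the horizontal axis, with 1 point per library and genes ordered by the difference between Myc_VD LZ (red circles) and MBCs (blue squares); grey triangles are Myc_WT LZ. An asterisk marks genes called; from Mef2b to Mybl1 every red point lies to the right of every blue point, and Lmo2 at the bottom has red points to the left.

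Whether the mutant cells held these genes at the level of Myc_WT LZ B cells was read in a fit of its own over 8987 genes. That fit called 1 gene (0.0111%), Rpl30, or between 0 and 19 genes under the alternatives tried, and 1194 genes (13.3%) had an unadjusted p under 0.05. Of the 20 GC genes 0 were called, and 4 had an unadjusted p under 0.05, 3 with a positive difference, namely Bcl6, Neil1 and Il21r, and 1 with a negative difference, against 13.3% of all genes. Their median difference from Myc_WT LZ was 0.15, against 0.03 for all genes. For Bcl6 the Myc_WT LZ values were 380.0, 337, 374 and 333, so the difference was 0.35 with a 95% interval of 0.06 to 0.64 (adjusted p = 0.295). The interval was -0.36 to 0.59 for Mef2b, -0.12 to 0.70 for S1pr2 and -0.45 to 0.83 for Gcsam. Il21r had the largest difference of the list, 0.89, with an interval of 0.44 to 1.33 (adjusted p = 0.129) and Myc_WT LZ values of 152, 120.1, 115 and 144. A p that misses the threshold does not show equal levels, and the intervals bound the difference for each gene.

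Genes of the LZ program gave no call. Of 20 genes of LZ activation, the CD40 and NF-κB response and B cell receptor signaling, 0 were called in either direction, the values of 17 overlapped, and the differences ranged from -0.56 to 2.51. The 3 without overlap were Egr1, Rel and Cd86, whose protein set the LZ gate. The largest difference of the list was that of Ebi3, a cytokine subunit (2.51 ± 1.08, adjusted p = 0.201), which was at 7.77, 33.4, 25.3 and 17.97 in Myc_VD LZ and 1.01, 0 and 19.6 in MBCs with overlapping groups. Cd83, a surface marker of LZ and activated B cells, was at 382, 418, 397 and 409 in Myc_VD LZ and at 313, 607 and 327 in MBCs, a difference of 0.02 with a 95% interval of -0.57 to 0.61. Cd40 was at 80.3, 99.7, 66.0 and 121 and 89.5, 65.4 and 93.7, with an interval of -0.67 to 0.92. Egr1, an immediate early gene of receptor signaling, was above MBCs in all Myc_VD libraries (128, 98.4, 141 and 139.9 against 75.0, 77.6 and 58.3, adjusted p = 0.158), and Rel, an NF-κB subunit, was below (144, 197, 151 and 178 against 313, 212 and 220.4, adjusted p = 0.265). The median of the list was 0.44, against 0.17 for all genes. When all 3 groups shared 1 fit, and also without MBC library 3, 1 of the 20 genes was called higher.

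Myc, which is on the LZ list, was not called, with 139.9, 115, 63.0 and 144 in Myc_VD LZ and 167, 85.5 and 132 in MBCs (-0.17 ± 0.40, 95% interval -1.04 to 0.70, adjusted p = 0.838). The allele changes 1 amino acid and leaves a transcript that is counted as Myc, so its level does not check the genotype. Myc_WT LZ libraries were at 64.9, 67.4, 78.5 and 65.5, and the difference from them was 0.67 (0.10 to 1.24, adjusted p = 0.301). Zbtb17, the gene of MIZ1, was low and variable at 6.75, 1.67, 12.9 and 18.2 in Myc_VD LZ and 2.18, 16.5 and 10.6 in MBCs, and its interval of -2.14 to 2.13 allows a large difference in either direction. Of 20 growth genes linked with MYC, 3 were called higher in Myc_VD LZ (against 3.71% of all genes) and 0 lower, with a median of 0.66 (against 0.17). These were Ran, a GTPase of nuclear transport (2.06 ± 0.38, adjusted p = 0.0126), Cdk4, a G1 kinase (1.78 ± 0.38, adjusted p = 0.0209), and Nop58, a component of small nucleolar ribonucleoproteins (1.28 ± 0.32, adjusted p = 0.0422).

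The list of DZ genes gave 2 calls higher and 1 lower among 10, against 3.71% and 2.34% of all genes. Polh, the error-prone polymerase of somatic hypermutation, was at 122, 124, 129 and 107 in Myc_VD LZ and at 20.5, 1.09 and 29.5 in MBCs (3.44 ± 0.81, adjusted p = 0.0328). Ccnd3, the D-type cyclin needed for division in the DZ, was at 251, 356, 271 and 276 against 134, 46.0 and 61.2 (1.97 ± 0.38, adjusted p = 0.0149). The 1 lower call was Foxp1, a transcription factor of B cells that is also expressed in resting B cells, so that its call does not read the DZ program alone. It was lower in Myc_VD LZ (574, 652, 503 and 605 against 1848, 1026 and 988, -1.08 ± 0.25, adjusted p = 0.0294). Foxo1, which is needed for the DZ program, was at 107, 109, 97.0 and 94.1 and 123, 96.6 and 102, and its difference had an interval of -0.74 to 0.60.

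Most MBC genes were lower in the mutant LZ cells than in MBCs. Of 24 genes on the list 23 were tested, and 17 were called lower in Myc_VD LZ, 0 higher and 6 not called, while Zbtb32 did not reach the mean needed. The values did not overlap in 19, all with Myc_VD below, and the median difference was -3.43, beside -3.15 between Myc_WT LZ and MBCs, which was not tested. The share of all genes called lower was 2.34%, and this list too was chosen with earlier results of these data known. The list holds 2 genes whose proteins set the MBC gate, Cd38 and Pdcd1lg2, and shares 14 genes with other lists used here. S1pr1, the receptor that draws lymphocytes out of lymphoid tissue, was at 1.93, 0.26, 1.11 and 6.41 in Myc_VD LZ and at 117, 142 and 148 in MBCs (-5.63 ± 0.75, adjusted p = 0.00263). Every MBC library lay far above the highest Myc_VD library.

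Ccr6, a chemokine receptor of memory and naive B cells, was at 11.3, 2.71, 8.19 and 11.5 in Myc_VD LZ and at 396, 399 and 258 in MBCs (-5.34 ± 0.54, adjusted p = 0.000649). Hhex, a homeobox factor required for MBC differentiation, was at 14.6, 2.10, 7.71 and 12.6 against 238, 246 and 254 (-4.83 ± 0.61, adjusted p = 0.00201). The 3 MBC libraries lay close together in Hhex, and the Myc_WT LZ libraries were at 15.5, 27.1, 29.0 and 41.5, all above the highest Myc_VD library (-1.67, interval -2.80 to -0.55, adjusted p = 0.211). Its corepressor partner Tle3 was called lower than in MBCs as well (-2.54 ± 0.56, adjusted p = 0.0257). Cd80, a costimulatory ligand that marks an MBC subset, was at 0, 0, 0 and 1.5 in Myc_VD LZ and at 38.8, 53.0 and 8.5 in MBCs (-4.44 ± 0.95, adjusted p = 0.022), and its call was lost in 6 of 17 alternatives. Ccr7, the receptor that guides cells to T cell zones, was at 0, 1.95, 1.11 and 4.26 against 43.1, 37.3 and 62.7 (-4.31 ± 0.82, adjusted p = 0.0144). Bcl2, the survival factor that GC B cells switch off, was at 3.41, 0.95, 16.2 and 8.72 in Myc_VD LZ and at 91.2, 189 and 90.1 in MBCs (-4.25 ± 0.79, adjusted p = 0.0132). Klf2 and Klf3, factors of quiescence and migration, were called lower (-3.69 and -3.54), as were Cd55 (-4.21), a regulator of complement, Gpr183 (-2.45), the oxysterol receptor EBI2, Vim (-1.93) and Cd44 (-1.53).

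The genes that were not called were Bach2, Itgb1, Nt5e, Zeb2, Ski and Cxcr3. Bach2, a repressor that favors the MBC fate, was at 337, 254, 483 and 526 in Myc_VD LZ and at 279, 280.2 and 237 in MBCs, a difference of 0.54 with an interval of -0.11 to 1.18. It was the 1 gene of the list with a positive log2 difference. Nt5e, which encodes the MBC marker CD73 that GC B cells also carry, was at 10.4, 11.6, 18.9 and 21.8 and 19.0, 13.5 and 21.8 with an interval of -1.61 to 1.15. Zeb2 was below MBCs in every library (112, 18.1, 25.0 and 42.1 against 122, 190.2 and 119, adjusted p = 0.0924), with Myc_VD library 1 close to the lowest MBC library. Ski (-3.43) was below MBCs in every library too, and Cxcr3 (-2.74) and Itgb1 (-0.19) overlapped. In the fit against Myc_WT LZ, 16 of the MBC genes reached the mean for a test, 0 were called, and their median difference was 0.17. Vim was at 135, 112, 158 and 86.5 in Myc_WT LZ (0.78, interval 0.16 to 1.41, adjusted p = 0.273). The count of MBC genes called lower was 11 without Myc_VD library 3 and 6 without MBC libraries 1 and 2.

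**Figure D2:**
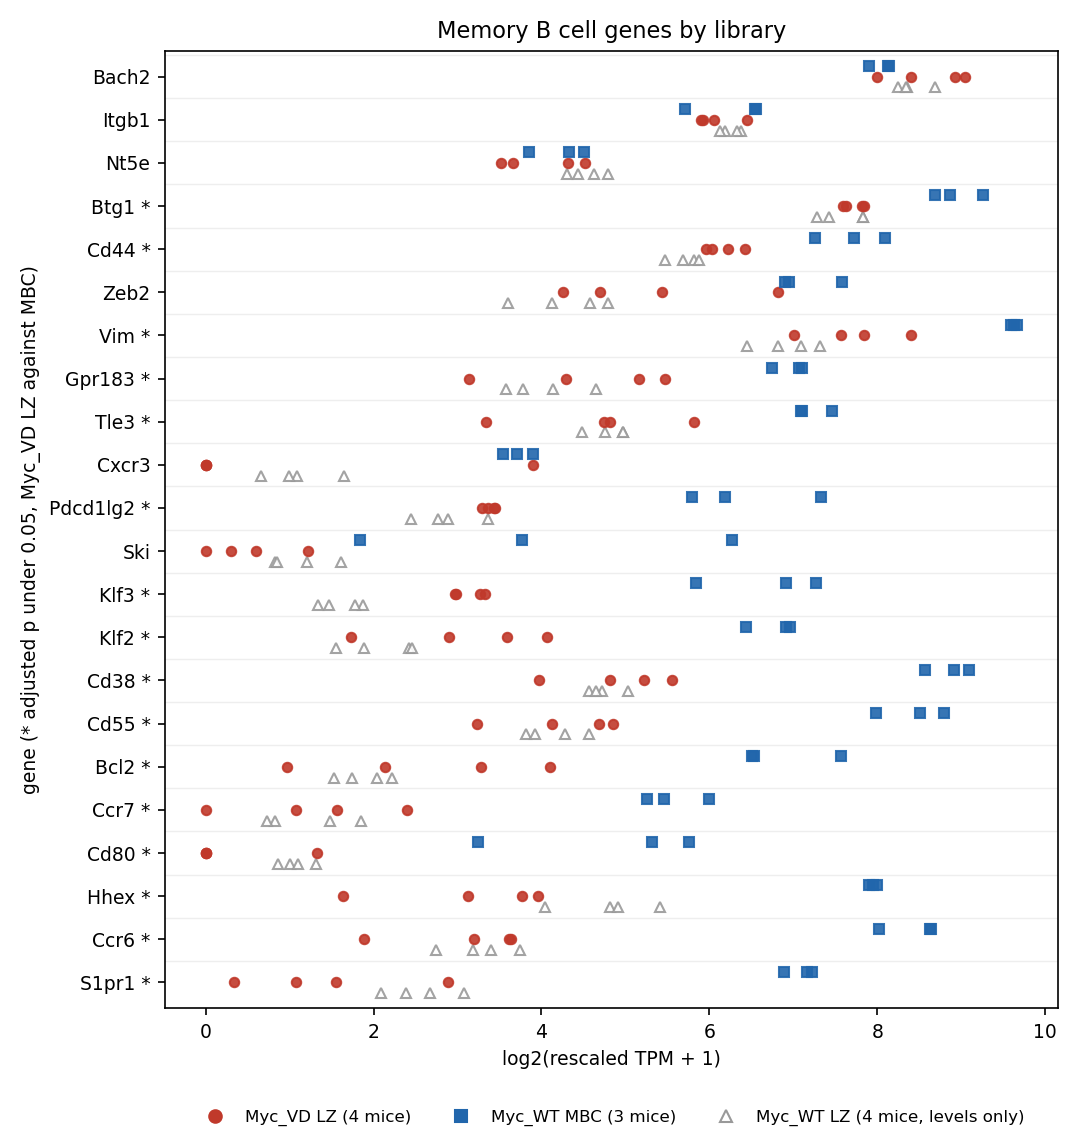
Levels of 22 of the MBC genes tested, log2(rescaled TPM + 1) on the horizontal axis, with 1 point per library; Myc_VD LZ are red circles, MBCs blue squares and Myc_WT LZ grey triangles. Genes marked with an asterisk were called lower in Myc_VD LZ, from S1pr1 (difference -5.63) to Btg1 (-1.22), and Bach2 at the top has overlapping groups.

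Receptors of homing and egress and genes of naive cells gave calls that were mostly lower. Of 17 homing receptors tested, 7 were called lower and 1 higher in Myc_VD LZ, and 9 were not called, against 2.34% of all genes lower and 3.71% higher. Those lower included S1pr1, Ccr6, Ccr7 and Gpr183, described above or on the MBC list, and the integrin subunits Itga4 (-2.68 ± 0.46, adjusted p = 0.00903) and Itgb7 (-4.29 ± 0.82, adjusted p = 0.015), which pair to bind gut endothelium. The gene called higher was S1pr2. Of 11 naive follicular genes tested, 7 were called lower (2.34% of all genes) and 0 higher, 5 of which are also on the MBC list. The other 2 were Bank1, an adaptor of receptor signaling (-1.28 ± 0.23, adjusted p = 0.0107), and Fcer2a, which encodes CD23 (466, 589, 439 and 538 against 1073, 1008 and 913, -0.98 ± 0.20, adjusted p = 0.0183). Cr2, which encodes CD21, overlapped between groups (-0.76 to 0.28 as interval), as did Cxcr5, the follicle homing receptor. Among 13 survival and death genes tested, Bcl2 and Tnfrsf13b, the receptor TACI (-1.47 ± 0.33, adjusted p = 0.0257), were called lower (2.34% of all genes) and 0 higher, and Mcl1, the survival factor of GC B cells, was below MBCs in each library (342, 270.3, 289 and 214 against 406, 637 and 460.0, adjusted p = 0.0881).

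Many proliferation genes were higher in the mutant LZ cells than in MBCs. Of 39 S phase genes, 16 were called higher in Myc_VD LZ than in MBCs (against 3.71% of all genes) and 0 lower, 24 did not overlap with Myc_VD above (against 11.9%), and the median difference was 1.86. Of 45 G2/M phase genes, 28 were called higher and 0 lower, 37 did not overlap with Myc_VD above, against the same shares of all genes, and the median was 2.77. All 45 G2/M genes had a positive log2 difference. Both lists were chosen with earlier results of these data known. Mki67 (chr7:135689784-135716361), the gene of the Ki-67 antigen of cycling cells, was at 1277, 1012, 998 and 1200.4 in Myc_VD LZ and at 152, 182 and 208 in MBCs (2.63 ± 0.22, adjusted p = 0.000404). Hmgb2, a chromatin protein of dividing cells, was at 2511, 2165, 1838 and 1819.5 against 223, 352 and 480.4 (2.62 ± 0.26, adjusted p = 0.000606). In both genes the lowest mutant library was far above the highest MBC library. Summed over the lists, S phase genes were at 4246 to 5592 in Myc_VD LZ, 1526 to 2002 in MBCs and 4953 to 6046 in Myc_WT LZ, and G2/M genes at 10089 to 12800, 2699 to 4110 and 7343 to 12455.

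The called G2/M genes with the largest differences encode parts of the mitotic machinery. Nuf2, of the kinetochore, was at 145, 235, 86.2 and 75.8 in Myc_VD LZ and at 0.53, 0 and 20.4 in MBCs (5.27 ± 0.98, adjusted p = 0.0131). Ube2c, the ubiquitin-conjugating enzyme of the anaphase-promoting complex, was at 439.5, 378, 439 and 418 against 25.6, 2.65 and 80.9 (4.39 ± 0.81, adjusted p = 0.0124), and Cdc20, its activator, at 58.3, 55.0, 167 and 105 against 4.08, 0 and 21.6 (4.17 ± 0.95, adjusted p = 0.0292). In these 3 genes MBC library 3 was the highest MBC library and MBC library 2 was the lowest. Ckap2, a spindle protein (4.48 ± 1.00, adjusted p = 0.0272), Ect2, the exchange factor of cytokinesis (4.18 ± 0.93, adjusted p = 0.0262), and Ccnb2, a mitotic cyclin (4.16 ± 0.97, adjusted p = 0.0327), had differences in the same range. Ttk, a kinase of the spindle checkpoint, had a difference of 4.21 ± 1.15 with overlapping groups and was not called (adjusted p = 0.0589). The call was lost in 9 alternatives for Ckap2, Ect2 and Cdc20, whose lowest differences over the alternatives were 1.73, 1.67 and 1.95, in 7 for Ccnb2 (2.64) and in 3 for Nuf2 (2.53), of 18 or 19 tried. Anp32e, Smc4, Dlgap5 and Bub3 had the smallest differences, from 0.11 to 0.89, and were not called.

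Among S phase genes, Tyms, the enzyme that makes thymidylate, was at 159, 192, 133 and 211 in Myc_VD LZ and at 0.22, 0 and 30.5 in MBCs (5.67 ± 1.04, adjusted p = 0.0124). Over the alternatives the Tyms difference ran from 2.45 to 7.43. E2f8, a factor that tempers E2F targets in S phase, was at 129.8, 188, 111 and 158 against 2.46, 3.82 and 11.3 (4.62 ± 0.55, adjusted p = 0.00158). Cdc6, which loads the replicative helicase, was at 46.8, 26.5, 28.8 and 35.6 and 0.06, 0.32 and 1.69 (4.48 ± 0.75, adjusted p = 0.00803). Cdc45, a helicase subunit (4.21 ± 0.77, adjusted p = 0.0126), and Dtl, which targets CDT1 for degradation (3.05 ± 0.48, adjusted p = 0.00627), were called too. Pcna, the sliding clamp, had a smaller and even difference, with 694, 474, 515 and 503 against 185, 211 and 191 (1.46 ± 0.23, adjusted p = 0.00633). Of the 23 genes not called, Ccne1, the cyclin of G1 to S entry, was the 1 with a negative log2 difference (12.0, 19.8, 20.3 and 15.1 against 25.7, 10.2 and 21.8, interval -1.50 to 1.26). The counts were 6 or 7 S phase and 6 to 8 G2/M genes when any single Myc_VD library was left out, and were 12 and 13 without MBC libraries 1 and 2. In the fit against Myc_WT LZ 0 of the 39 and 0 of the 45 were called, with medians of -0.16 and 0.09, and at an unadjusted p under 0.05 there were 3 S phase genes with negative differences and 5 G2/M genes with positive and 1 with a negative difference, against 13.3% of all genes.

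The promoters of E2f8 and Mki67, the S phase and G2/M genes with the smallest adjusted p for which a promoter was at hand, were searched for motifs that cell cycle promoters are known for. They are shown because the called genes of both lists were all higher in Myc_VD LZ. The 250 bases before the start annotated by RefSeq are printed 5′ to 3′ on the gene's strand (GRCm38.p6), both from the minus strand, with matches in capitals. The motifs searched on both strands, whose matches could overlap, were CHR (TTTGAA), the CCAAT box (CCAAT) and E2F (TTTCCCGC, TTTGGCGC, TTTCGCGC or TTTGCCGC). The regions are chr7:48881597-48881846 and chr7:135716380-135716629.
E2f8: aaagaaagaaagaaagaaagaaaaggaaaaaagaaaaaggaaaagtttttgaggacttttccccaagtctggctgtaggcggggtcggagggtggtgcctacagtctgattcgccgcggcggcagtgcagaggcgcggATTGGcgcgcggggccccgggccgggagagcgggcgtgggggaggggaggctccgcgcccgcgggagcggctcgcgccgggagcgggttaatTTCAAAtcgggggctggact
Mki67: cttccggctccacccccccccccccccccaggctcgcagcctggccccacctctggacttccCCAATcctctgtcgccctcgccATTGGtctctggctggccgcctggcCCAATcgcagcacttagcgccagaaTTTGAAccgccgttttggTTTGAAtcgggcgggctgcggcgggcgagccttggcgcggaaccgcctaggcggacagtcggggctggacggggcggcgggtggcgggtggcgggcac
The E2f8 region held 1 CHR match, 20 bases before the start, and 1 CCAAT match, 112 bases before it, and 0 E2F matches. The Mki67 region held 2 CHR and 3 CCAAT matches and 0 E2F matches. Promoters were at hand for 38 of the 45 G2/M genes, of which 16 (42.1%) held a CHR match and 30 (78.9%) a CCAAT match, 15 (39.5%) held both, and 2 (5.3%) held an E2F match. They were at hand for 28 of the 39 S phase genes, of which 9 (32.1%) held an E2F match, 18 (64.3%) a CCAAT match, 4 (14.3%) a CHR match and 3 (10.7%) both CHR and CCAAT. Of all 27025 promoters 16.3% held a CHR match, 34.5% a CCAAT match, 5.7% both, and 1.9% an E2F match, and of the 7390 of genes tested 10.9%, 37.8%, 4.5% and 3.8%. A match is a description of these letters and no measured site.

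Histone genes carried the largest differences of the whole comparison. By the rule that names the 12 genes with the largest difference in each direction, all 12 higher genes were of the histone clusters. Of 59 histone cluster genes tested, 53 were called higher and 0 lower, against 3.71% and 2.34% of all genes, with a median of 4.60 against 0.17, and all 59 had a positive log2 difference. These genes are transcribed in S phase, when new DNA is packed, and members are near identical, so that reads can be split among copies and single members are uncertain. Their sum was 2.30 to 3.06% of the protein-coding total in Myc_VD LZ and 0.155 to 0.243% in MBCs. Many members were listed at 0 in MBCs, 21, 32 and 10 of the 59 in libraries 1, 2 and 3 and 7 in all 3, so the fitted median depends on the pseudocount. The share of ribosomal RNA, given above, was also higher in every Myc_VD library, and its part in the histone result was not tested. Hist1h2bl was at 2072, 2281, 2551 and 1734 in Myc_VD LZ and at 34.2, 3.94 and 204 in MBCs (6.02 ± 0.92, adjusted p = 0.00544), and Hist2h3b at 1243, 1186, 1290.3 and 949.8 against 3.11, 9.92 and 35.4 (6.62 ± 0.59, adjusted p = 0.000404). Hist1h2ai was at 432, 473, 386 and 599 in Myc_VD LZ and listed at 0 in all MBC libraries, so no difference is given. Hist1h2ap, Hist1h3b, Hist1h2ac, Hist1h3e, Hist2h3c2, Hist1h1a, Hist1h2bp, Hist1h4j and Hist1h3a had differences between 6.13 and 7.67. Over the alternatives their lowest differences ran from 3.30 (Hist1h1a) to 5.04 (Hist2h3c2), and their highest from 7.65 (Hist1h3a) to 9.89 (Hist1h2ap).

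In Myc_WT LZ the histone sum was 1.15 to 2.25% of the protein-coding total, below the lowest Myc_VD library in each case, a difference that was not tested. Of the 59 genes 0 were called in that fit, and 40 had an unadjusted p under 0.05 with a positive difference and 0 with a negative difference, against 13.3% of all genes in either direction. Their median difference from Myc_WT LZ was 0.72. Of 9 erythroid genes in that fit, 5 had an unadjusted p under 0.05 with a positive difference, and the median was 1.32. Their sums were 346 to 1106 in Myc_VD LZ and 296 to 531 in Myc_WT LZ. Myc_WT LZ library 2 had the highest erythroid sum of its group and the lowest histone share. Ribosomal RNA took 44.1 to 61.3% of TPM in Myc_VD LZ and 35.7 to 44.5% in Myc_WT LZ. The part of either in the histone values was not tested. Gene copies share reads here too, so that the 40 are not separate observations.

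**Figure D3:**
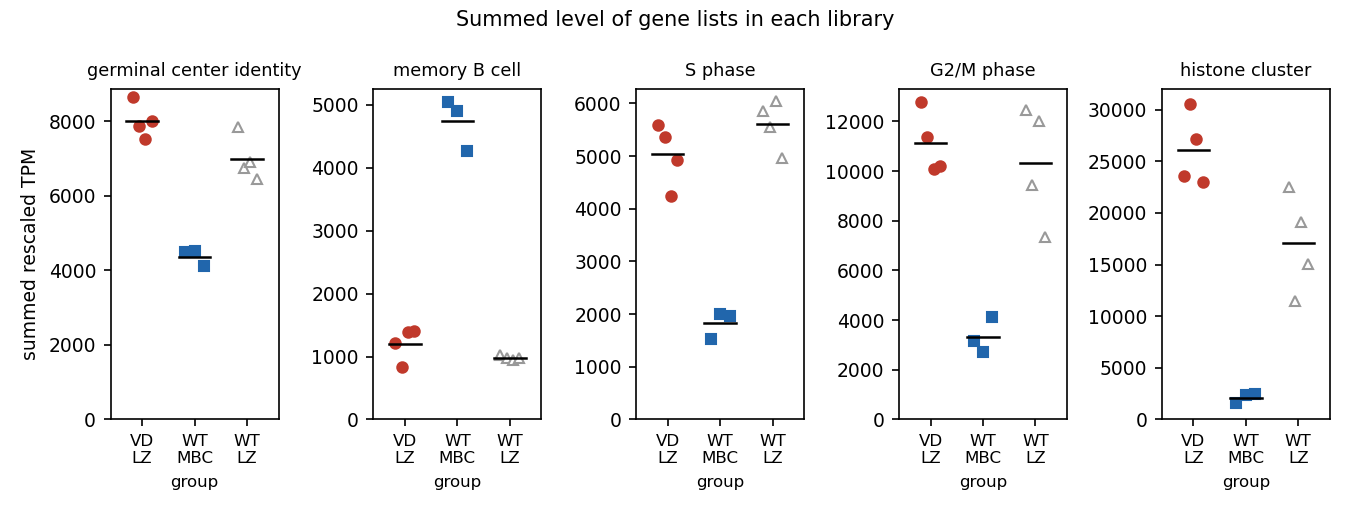
Summed rescaled TPM (vertical axis, from 0) of 4 gene lists and of the histone cluster genes in each library, with a black line at the mean of each group. Myc_VD LZ (red, 4 libraries) lies above MBCs (blue, 3) for GC identity, S phase, G2/M and histone genes and below for MBC genes, without overlap, and Myc_WT LZ (grey, 4) is shown for its level.

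Apart from histones, the genes with the largest differences higher were Banf1, Dctpp1, Atp5mpl, Cdkn3, Ndufaf8, Gins1 and Gstt1, beside Tyms, Mef2b and Nuf2, a set named after their values were seen. Dctpp1, a nucleotide pyrophosphatase, was at 89.0, 127, 45.2 and 78.9 in Myc_VD LZ and at 0, 0 and 3.82 in MBCs (5.58 ± 0.78, adjusted p = 0.00346), and Gins1, of the replicative helicase, at 32.8, 64.7, 36.4 and 41.9 against 0, 0 and 1.62 (4.98 ± 0.75, adjusted p = 0.0051). All 7 of the genes named first were listed at 0 in MBC libraries 1 and 2 and above 0 in library 3. Among them Banf1, which binds DNA at the nuclear envelope, was at 0, 0 and 83.0 in MBCs, and Atp5mpl, a subunit of the mitochondrial ATP synthase, at 0, 0 and 70.9. Both are used by nearly all cells, and both calls were lost in 10 of 18 alternatives, over which the lowest difference of Banf1 was 1.37. Of the 343 genes called higher, 51 were listed at 0 in both of these libraries and 92 in at least 1 MBC library. Of the 216 called lower, 36 were at 0 in at least 1 Myc_VD library. All genes called had groups without overlap, so none could be at 0 in a library of its higher group. Restricted to the 7868 genes above 0 in every library, 248 were called higher and 182 lower, among them 10 GC identity, 15 MBC, 13 S phase and 25 G2/M genes.

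Among the genes with the largest differences lower were Plac8, Fcrl5, Pml, S1pr1, Rin3, Scml4, Kctd14, Tmem154, Ccr6, Fcna and Bhlhe41. Plac8, a small cysteine-rich protein of lymphoid and myeloid cells, was at 0.57, 0, 0 and 3.35 in Myc_VD LZ and at 209, 88.6 and 194 in MBCs (-6.58 ± 0.80, adjusted p = 0.00166). Fcrl5, an Fc receptor-like protein of B cells, was at 0, 1.45, 0 and 5.53 against 80.7, 197 and 75.0 (-5.74 ± 0.88, adjusted p = 0.00549). All MBC libraries were far above all Myc_VD libraries in both genes. Pml, the organizer of PML nuclear bodies, was at 16.5, 0, 3.39 and 9.83 and 292, 361 and 211 (-5.72 ± 0.89, adjusted p = 0.00566). Bhlhe41, a transcription factor of B-1 cells and MBCs, was at 0, 0.07, 0 and 0 against 48.7, 14.3 and 60.5 (-5.15 ± 0.87, adjusted p = 0.0085). Fcna, the ficolin A of macrophages, was listed at 0 in all Myc_VD libraries and at 36.3, 44.4 and 25.7 in MBCs, beside the myeloid sum given above. Rin3, Scml4, Kctd14 and Tmem154 had differences between -5.60 and -5.35, and Tmem154 was at 0, 16.2, 0 and 0.13 in Myc_VD LZ, with library 2 apart from the rest.

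**Figure D4:**
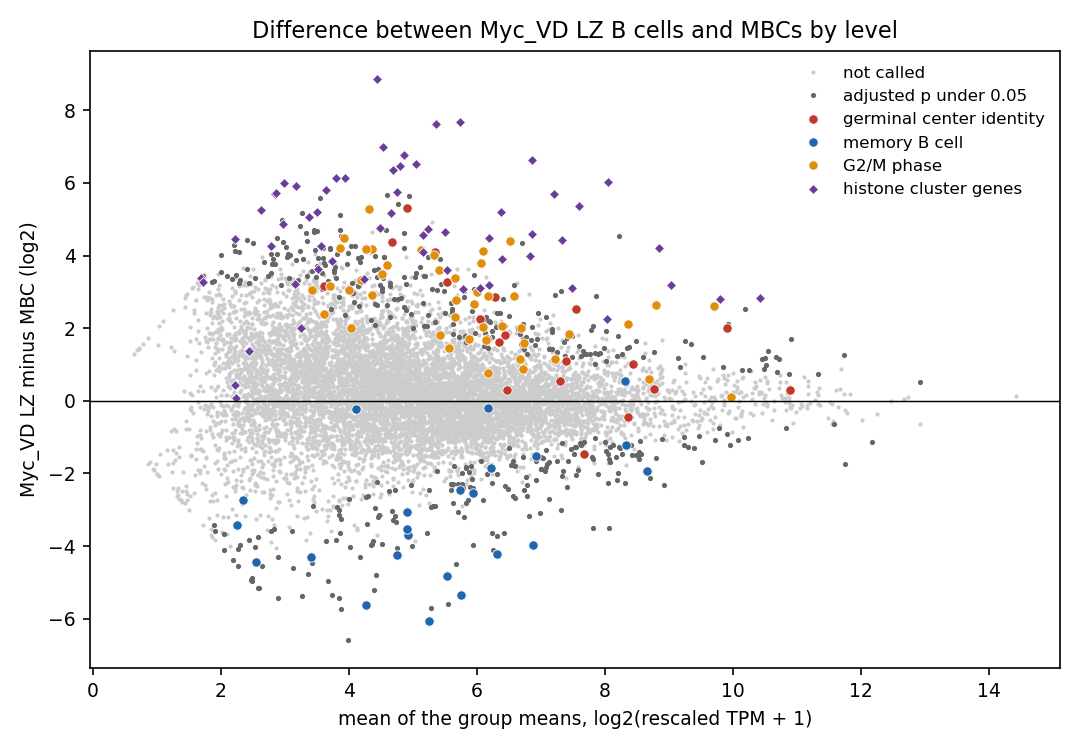
Difference between Myc_VD LZ and MBCs (log2) against the mean of both group means (log2(rescaled TPM + 1)) for the 9244 genes tested, with called genes in dark grey. GC identity (red), G2/M (orange) and histone cluster genes (purple diamonds) lie mostly above 0, where all 59 histone genes are, and MBC genes (blue) mostly below it; the highest point, Hist1h2ai, is listed at 0 in all MBC libraries.

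Brakes on the cell cycle were not uniform. Of 18 CDK inhibitor and quiescence genes 14 were tested, 3 were called lower in Myc_VD LZ and 1 higher, against 2.34% and 3.71% of all genes. Those lower were Klf2, Btg1, an antiproliferative factor of resting B cells (-1.22 ± 0.24, adjusted p = 0.0172), and Rb1, the retinoblastoma protein (21.7, 36.0, 24.1 and 37.9 against 123, 89.9 and 111, -1.84 ± 0.42, adjusted p = 0.0287). Rbl1, the related pocket protein p107, went the other way, with 92.9, 72.3, 64.6 and 67.3 against 13.2, 2.57 and 22.1 (2.82 ± 0.66, adjusted p = 0.0318). Cdkn1b, which encodes p27, was at 11.2, 44.4, 13.5 and 19.1 in Myc_VD LZ and at 18.4, 88.3 and 52.8 in MBCs (interval -2.72 to 0.36), and Cdkn1a, which encodes p21, at 27.2, 0, 21.2 and 4.39 and 1.27, 0 and 12.7 (interval -1.71 to 4.27), both with overlapping groups.

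MIZ1 target genes that the study names gave 1 call. The study chose this list on these libraries, so its direction is not independent evidence. Of the 11 genes, 1 was called lower in Myc_VD LZ than in MBCs (against 2.34% of all genes) and 0 higher, 9 overlapped, and the median difference was -0.43. The gene called was Itpr1, a calcium channel of the endoplasmic reticulum, with 54.6, 81.1, 84.6 and 139 in Myc_VD LZ and 406, 153 and 308 in MBCs (-1.64 ± 0.42, adjusted p = 0.047), and 58.1, 61.1, 56.6 and 59.2 in Myc_WT LZ. In 10 of 19 alternatives that call was lost, with adjusted p of up to 0.13 in limma. Bcl11a, a zinc finger factor of B cells, was at 329.9, 364, 315 and 397 in Myc_VD LZ, at 565, 539.9 and 401 in MBCs and at 233, 248, 223 and 286 in Myc_WT LZ, so that the 3 groups did not overlap (adjusted p = 0.223 against MBCs and 0.204 against Myc_WT LZ). Myh9, nonmuscle myosin, was at 236, 221, 200.3 and 263, 424, 258 and 324 and 133, 128, 175 and 114 in the same order. Arhgef1, an exchange factor of S1PR2 and Gα13 signaling, was at 369, 405, 475 and 675 in Myc_VD LZ and at 1149, 979 and 487 in MBCs (adjusted p = 0.172). Gadd45g, a stress sensor that slows the cycle, was at 25.3, 14.2, 14.98 and 32.8 and 0, 22.2 and 14.2, and Rela, an NF-κB subunit, at 33.0, 90.7, 47.2 and 46.5 and 59.7, 11.6 and 52.8, both with positive log2 differences, which Map2k7 had too. Sh2b3, Akt1s1, Vav2 and Mafk had differences between -0.49 and -0.31. In the fit against Myc_WT LZ all 11 had positive differences, 7 at an unadjusted p under 0.05 (against 13.3% of all genes in either direction) and 0 called, with differences from 0.51 to 1.10.

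**Figure D5:**
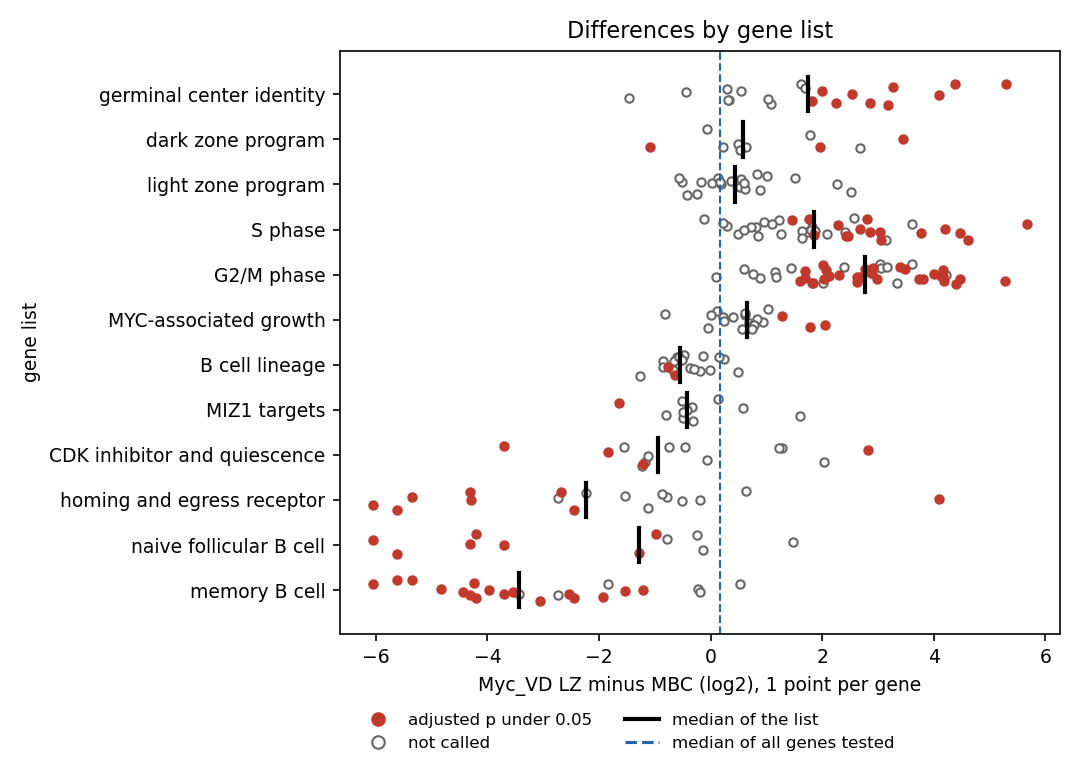
Difference between Myc_VD LZ and MBCs (log2) of each tested gene in 12 lists, with called genes in red, other genes as open circles, the median of each list as a black bar and the median of all genes (0.17) as a dashed line. The G2/M median (2.77) is farthest above the line and the MBC median (-3.43) farthest below it, and the LZ program list has no red point.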

How the data were processed

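RNA-seq was made from 11 sorted spleen populations, 1 library each, of which 7 entered the comparison. The deposited values are TPM per gene, which per the labels and the study's methods the authors made with STAR 2.5.2a and RSEM 1.3.0 on strand-specific reads (GRCm38). They hold no read counts, so depth is unknown and no count model was used. All 11 columns were matched to samples, with 0 left over.

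Of 48795 genes, 48435 matched GENCODE, and 21759 were nuclear protein-coding. Each library was rescaled over these to 1000000, and the 9244 with a mean of at least 5 over the 7 libraries were fitted with limma 3.58.1 (R 4.3.3, empirical Bayes with trend, two-sided) on log2(value + 1), which understates changes of low genes, with Benjamini-Hochberg adjustment. Myc_VD and Myc_WT LZ were fitted separately. Exact permutation tests (two-sided) used all 35 groupings. Figures and summaries used Python 3.11.15. Tested on data simulated for the comparison of Myc_VD LZ with MBCs (9244 genes), the fit called 70 of 100 genes changed by 4 and 23 of 100 changed by 2 on the log2 scale, and 5 of its 98 calls were false. The simulation gave both groups the same spread per gene and drew libraries independently. The MBC libraries were less alike than the Myc_VD libraries, so these shares may not hold for the real data. Gene differences are given ± SE with n = 4 and 3.

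Genes named were the 12 with the largest difference in each direction among called genes without overlap (predicted genes passed over), up to 6 of each main list, members against their list, sorting markers, MIZ1 targets, Myc and Zbtb17. Others were added for their role or, where stated, after their values were seen. The 21 gene lists and the members were chosen with earlier results of these data known. Alternatives were other pseudocounts, filters, scalings, limma settings, 1 fit of all groups and leaving out each library. Genes above 0 in every library, and the comparison without MBC libraries 1 and 2, were added after seeing the data. Some genes that the rule names are counted in their lists but not reported here.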

Additional observations from a re-analysis of the deposited data

Results flagged for a closer look

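Among the named genes, 14 values lay apart from the other libraries of their group by Dixon's criterion, in 146 groups of 4 examined. Chance meets the criterion in about 1 of 20 groups, and the MBC groups, of 3 libraries, were not examined. In Myc_VD LZ, library 2 had Tmem154 at 16.2 where the others were at 0 to 0.13, and Bhlhe41 at 0.07 where the others were listed at 0. Library 4 had Plac8 at 3.35 (others 0 to 0.57) and Cd80 at 1.5 (others listed at 0), and library 1 had Kctd14 at 3.16 (others 0 to 0.2). Library 3 had Sdc1, the gene of CD138, at 15.3 where the others were listed at 0, Neil1 at 232 (others 201 to 203) and Ndufaf8 at 120.4 (others 72.4 to 78.7).

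In Myc_WT LZ, library 1 had Pml at 1.02 (others 3.03 to 3.25), Map2k7 at 49.6 (others 29.9 to 33.2) and Gins1 at 65.3 (others 48.8 to 49.7). Library 2 had Hist1h1a at 229 (others 253 to 254), library 3 had Kctd14 at 0.33 (others listed at 0), and library 4 had Nuf2 at 92.9 (others 157 to 168).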

How the results depend on the processing

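Of the recomputed counts and medians, 107 stayed within 1.5 times or the spread and 64 moved; for single genes, 1157 values kept direction and call, 152 lost the call, 7 gained it and 16, none of them called, reversed. On TPM as deposited 202 genes were called higher and 382 lower, 9 in the S phase and 18 in the G2/M list, and 19 between Myc_VD and Myc_WT LZ, the median of all genes was -0.1874 and Map2k7 was at -0.2176. With all 3 groups in 1 fit 971 were higher and 599 lower, 25 of them S phase higher and 1 of the LZ program higher, and 0 differed between LZ groups. That fit treated the MBC and Myc_WT LZ libraries of the same 3 mice as independent. Without the trend 206 were higher and 140 lower, with 5 GC, 7 S phase and 11 G2/M genes. Without a filter 176 were higher, with 6 GC, 10 S phase and 13 G2/M genes, and 0 differed between LZ groups. A pseudocount of 0.1 gave 224 higher. A pseudocount of 5 gave 5 genes between LZ groups and Zbtb17 at 0.0018, and a mean of at least 1 gave 6 between LZ groups. Quantile normalization gave 19 between LZ groups and a median of -0.0133. Without MBC libraries 1 and 2, 151 were higher and 40 lower, with 6 MBC and 13 G2/M genes, a median of -0.0747, Akt1s1 at 2.41, Rela at -0.059 and Mafk at 0.3421.

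When each library was left out in turn, genes called ranged from 103 to 714 higher and 97 to 255 lower, GC genes from 5 to 11, LZ genes from 0 to 1, MBC genes from 11 to 17, S phase genes from 6 to 18 and G2/M genes from 6 to 34. The median of all genes ranged from -0.0029 to 0.2777 and genes between LZ groups from 0 to 12, with 9 and 12 without Myc_VD libraries 1 and 2. Values of genes not called ranged for Zbtb17 from -0.7276 to 0.5587, Myc -0.4335 to 0.0955, Mafk -0.8351 to 0.3184, Akt1s1 -1.935 to 0.2609, Rela -0.1457 to 0.9881 and Map2k7 -0.169 to 0.3551. The counts without 1 library rest on fewer samples, and the cause of the other changes was not tested. No paired analysis was possible because no mouse gave both a Myc_VD LZ and an MBC library. TPM keep no depth, so counting error and limits of detection are unknown.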
